A study of Homo sapiens with 38 samples.

Results

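Protein disulfide isomerases and the oxidases that serve them were followed in 38 microarrays of 2 human cancer cell lines under glucose stress. The 9 genes were taken as every probe set annotated to P4HB, PDIA3, PDIA4, PDIA5, PDIA6, TXNDC5, TMX1, ERO1A or ERO1B under its current or former symbol. They were carried by 21 probe sets, and all 21 passed the filter on low signals that left 21743 probe sets and 11654 genes for the tests. Where a gene had several probe sets, the one with the highest mean signal stood for the gene. PDIA5 and TXNDC5 each had a single probe set, which the platform annotation also assigns to MIR7110 (for PDIA5) and to the readthrough gene BLOC1S5-TXNDC5 (for TXNDC5), and it was given to the member gene through its own RefSeq accession.

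The lines were HT-1080, a fibrosarcoma line, and HT-29, a colorectal adenocarcinoma line, each with a rho0 derivative that lacks mitochondrial DNA. In HT-1080, 3 arrays had 2-deoxyglucose (2DG), which blocks glycolysis and also disturbs protein glycosylation, 2 had glucose-free medium (glucose starvation, GS) and 1 had tunicamycin (TM), which blocks N-glycosylation and so causes endoplasmic reticulum (ER) stress without glucose withdrawal. Compounds were added on top of a stress, never alone: Met (metformin, 10 mM), Bu (buformin, 300 µM) or Phen (phenformin, 100 µM), which are all biguanides, with 2DG, the mitochondrial complex I inhibitor rotenone (Rot, 100 nM) and the complex III inhibitor antimycin A (AA, 10 ng/ml) with 2DG, GS or TM, and the macrocyclic compound versipelostatin (VST, 3 µM) with 2DG or GS. HT-29 cells had GS on 3 arrays and GS with VST on 1. The rho0 HT-1080 cells had 2DG, GS or TM on 1 array each, the rho0 HT-29 cells had GS on 1 array, and 12 arrays were of unstressed cells: 2 of rho0 HT-1080, 1 of rho0 HT-29, 6 of HT-1080 and 3 of HT-29.

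Treatment lasted 18 h, except on the third HT-29 GS array and the rho0 HT-29 GS array, where it lasted 14 h, and the labels state that the rho0 HT-29 cells were badly damaged by 18 h. On the HT-1080 arrays of GS with Rot (1 of 2), GS with AA and rho0 GS, floating cells were collected together with attached ones. The doses of 2DG and tunicamycin are not given in the sources used here. Every treated array has a control named for it in the labels, and each log2 change below is relative to that array. Each condition is a culture of an established line, the rho0 cells are derivatives of that line, and nothing in the labels ties arrays to separately started cultures, so p-values measure the spread between these arrays, which may be technical. A group of 1 array was tested with the spread of the replicated groups. Where different compounds, stresses or lines shared 1 coefficient, the spread between them also counted as error. Such arrays are not replicates of 1 condition.

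Disulfide bonds of secreted and membrane proteins are formed in the ER by thioredoxin-like enzymes. P4HB (PDI itself, also a subunit of collagen prolyl hydroxylase and of the microsomal triglyceride transfer protein), PDIA3 (ERp57, which works with calnexin and calreticulin on glycoproteins), PDIA4 (ERp72), PDIA5 and PDIA6 (P5) make, break and rearrange disulfides. TXNDC5 (ERp46) introduces disulfides rapidly, and TMX1 is a membrane-anchored member that acts on membrane-bound clients. ERO1A and ERO1B are flavin-dependent oxidases that pass electrons from the isomerases to oxygen and so keep the isomerases oxidised. When unfolded proteins accumulate, the unfolded protein response (UPR) raises transcription of many ER folding genes through ATF6 and XBP1, which act at promoter motifs such as the ER stress response element, and through ATF4. ERO1A is also known as a hypoxia-responsive gene.

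RefSeq promoters (GRCh38.p14, from 250 bases before to 50 bases after the start) were held for 8 of the 9 genes in 11 windows, and not for PDIA3. The full ER stress response element, CCAAT and CCACG with 9 bases between them on either strand, was present in 27 of 35114 promoters, or 0.0769%, and among them were a promoter of PDIA6 and the promoter of ERO1B. The UPR element TGACGTG, present in 1.97% of promoters, was found in a promoter of TXNDC5. Its letters always contain the hypoxia core motif ACGTG. The windows that hold these motifs are shown. Whether a motif goes with the behaviour of its gene in the arrays was not tested. Capitals mark the ER stress response element in PDIA6 (chr2:10812736-10813035, minus strand) and, on the opposite strand of the gene, in ERO1B (chr1:236281909-236282208, minus strand), and the UPR element in TXNDC5 (chr6:7910028-7910327, minus strand), each written 5′ to 3′ on the strand of its gene.
PDIA6: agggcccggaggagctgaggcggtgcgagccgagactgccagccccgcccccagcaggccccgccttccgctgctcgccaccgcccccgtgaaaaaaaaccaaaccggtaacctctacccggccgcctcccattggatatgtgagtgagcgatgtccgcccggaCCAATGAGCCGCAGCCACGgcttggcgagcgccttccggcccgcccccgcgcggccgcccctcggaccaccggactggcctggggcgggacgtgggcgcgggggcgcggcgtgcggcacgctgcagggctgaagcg
ERO1B: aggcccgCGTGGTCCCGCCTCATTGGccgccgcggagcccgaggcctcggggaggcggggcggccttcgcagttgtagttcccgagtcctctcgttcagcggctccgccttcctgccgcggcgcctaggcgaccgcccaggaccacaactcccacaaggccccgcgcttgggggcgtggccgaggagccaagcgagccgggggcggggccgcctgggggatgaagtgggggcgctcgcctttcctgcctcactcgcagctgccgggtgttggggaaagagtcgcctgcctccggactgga
TXNDC5: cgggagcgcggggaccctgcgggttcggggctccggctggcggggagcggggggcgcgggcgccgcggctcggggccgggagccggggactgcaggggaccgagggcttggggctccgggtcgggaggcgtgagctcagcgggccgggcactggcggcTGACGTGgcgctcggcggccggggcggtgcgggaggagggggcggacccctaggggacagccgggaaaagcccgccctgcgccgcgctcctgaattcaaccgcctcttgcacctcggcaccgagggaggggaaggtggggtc
In the PDIA6 window the element begins 86 bases before the start, at chr2:10812853-10812871, and in the ERO1B window 243 bases before it, at chr1:236282183-236282201. The second ER stress element, ATTGG and CCACG with 1 base between them (0.0541% of promoters), and the ATF4 composite element, TGATGNAA (3.62%), were in no window of the 8 genes. The hypoxia core motif ACGTG, in 21.4% of all promoters, was in 5 of the 11 windows, those of PDIA4, PDIA5, PDIA6, TXNDC5 and ERO1A. In TXNDC5 its only match lies inside the UPR element. A letter match is not a bound site, and the starts used by these cells were not measured.

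The labels were checked against marker genes. All 10 mesenchymal markers were higher in HT-1080 and all 8 measured epithelial markers were higher in HT-29, and for 7 of 7 measured transcripts encoded by mitochondrial DNA every rho0 array lay below every parental array. Before scaling, the trimmed mean signal reached 89.5 to 102 where a compound met 2DG or GS (11 arrays) and 90.2 to 96.3 in rho0 cells under 2DG or GS (3 arrays), against 122 to 131 on the 9 parental arrays of stress alone and 124 to 136 on the 9 parental controls. The 2 arrays of TM with a compound (118 and 119) and the rho0 TM array (113) lay between these ranges. All arrays were then brought to 1 trimmed mean, so values below are relative to the whole array. The ratio of 3′ to 5′ signal of ACTB, a sign of RNA quality, was 1.51 to 1.76 on the 3 arrays of GS with Rot or AA, against 1.04 to 1.49 on the other 35.

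**Figure D1:**
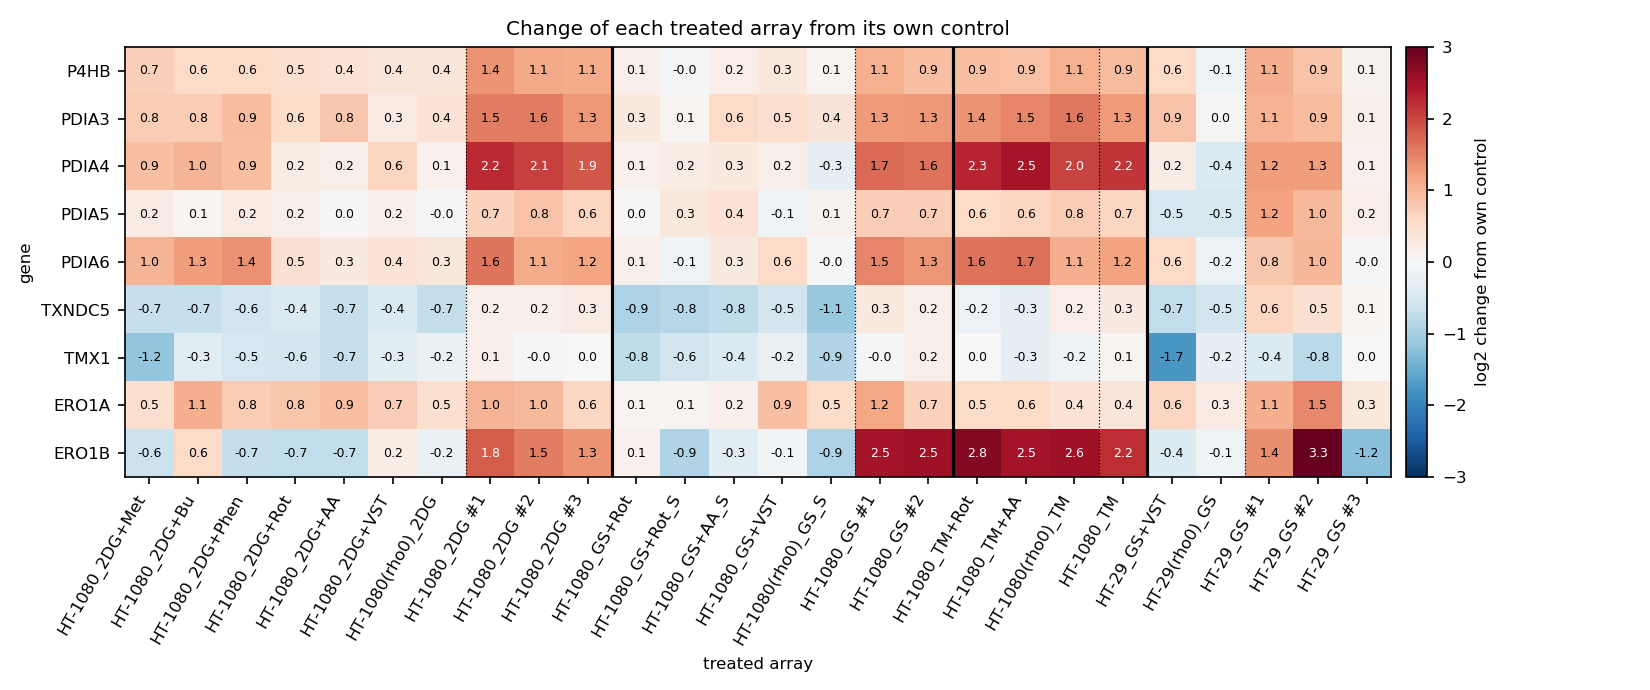
Log2 change of each of the 9 genes on each of the 26 treated arrays from that array's own control, with the colour scale capped at 3 on either side of 0 and the ending _S marking arrays that include floating cells. PDIA4 changed by 1.86 to 2.24 on the arrays of 2DG alone and by 0.18 to 1.01 on those of 2DG with Met, Bu, Phen, Rot or AA, whereas it stood at 2.28 and 2.48 with TM and Rot or AA.

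Under 2DG the 5 general isomerases and ERO1A, on the probe set that stands for it, rose in HT-1080 cells, while TXNDC5 and TMX1 were not called. In the limma fit, 6 of the 9 genes were called higher and 0 lower at an adjusted p under 0.05, beside 4.85% of all tested genes called higher and 3.42% called lower. The median log2 change of the 9 genes was 1.20, against 0.02 for all genes.

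PDIA4 gave scaled signals of 2862, 2761 and 1965 on the 3 arrays of 2DG, against 474 to 660 (median 569) on the 6 unstressed HT-1080 arrays. The groups did not overlap, and the change was 2.05 ± 0.19 on the log2 scale (SE, adjusted p = 0.000436), the largest among the 6 called genes. P4HB gave 5345, 6809 and 6984 with 2DG, against 2085 to 3245 (median 3012) in controls, a change of 1.20 ± 0.15 (adjusted p = 0.0015). PDIA3 gave 4493, 4780 and 4402 with 2DG, against 1411 to 1999 in controls, and rose by 1.46 ± 0.15 (adjusted p = 0.000641). For both genes each stressed array was above each control array.

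PDIA6 gave 4753, 4707 and 4555 with 2DG, against 1351 to 2188 in controls (change 1.29 ± 0.17, adjusted p = 0.00184). PDIA5 gave 702, 845 and 670 with 2DG, against 426 to 542 in controls (0.73 ± 0.17, adjusted p = 0.0237). ERO1A, the broadly expressed oxidase, gave 1355, 1386 and 1275 with 2DG, against 653 to 864 in controls (0.87 ± 0.19, adjusted p = 0.0167). None of these 3 genes had overlapping groups either. For no comparison is the share of all genes whose groups did not overlap given, so a lack of overlap describes these genes only. The calls of PDIA5 and ERO1A were lost when any 1 of the 3 2DG arrays or their controls was left out, which left 4 genes called each time.

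TXNDC5 gave 2239, 2399 and 2470 with 2DG, against 1894 to 2463 in controls, and its change of 0.19 did not pass (adjusted p = 0.33, 95% interval -0.06 to 0.44). TMX1 gave 1937, 1636 and 1618 with 2DG, against 1380 to 1752 in controls (0.04, adjusted p = 0.888, interval -0.26 to 0.34). For both genes the groups overlapped. ERO1B gave 101, 97.5 and 72.8 with 2DG, against 14.8 to 30.1 in controls. Its groups did not overlap and its fitted change was 1.56, but with an SE of 0.60 it did not pass (adjusted p = 0.131). Its control signals lay under the filter level of 45.5, where the log2 change depends on the constant added to the signal.

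Glucose starvation moved the same 6 genes past the threshold in HT-1080, and in the same direction, with 4.31% of all genes called higher and 5.08% called lower. The median change of the 9 genes was 0.98, against -0.02 for all genes. PDIA4 gave 2115 and 1480 with GS, against the control range above, and rose by 1.67 ± 0.23 (adjusted p = 0.00325). PDIA6 gave 3855 and 3365 with GS and rose by 1.39 ± 0.20 (adjusted p = 0.00346), and PDIA3 gave 3439 and 4272 and rose by 1.29 ± 0.18 (adjusted p = 0.00322). All of these stressed arrays lay above all 6 controls.

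P4HB gave 4684 and 5797 with GS (0.98 ± 0.18, adjusted p = 0.00965), PDIA5 gave 717 and 908 (0.73 ± 0.21, adjusted p = 0.0476) and ERO1A gave 1458 and 1121 (0.92 ± 0.23, adjusted p = 0.0294). TXNDC5 gave 2330 and 2775 with GS, a change of 0.23 that did not pass (adjusted p = 0.328), and TMX1 gave 1662 and 1570, a change of 0.07 (adjusted p = 0.829). ERO1B gave 127 and 114 with GS, against 14.8 to 30.1 in controls, yet its change of 2.52 ± 0.74 missed the threshold narrowly (adjusted p = 0.0532). With either of the 2 GS arrays or its control left out, none of the 9 genes was called, while the median change stayed at 0.90 to 1.15.

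The changes under GS and 2DG were compared directly in HT-1080. None of the 9 genes differed at an adjusted p under 0.05, and none at an unadjusted p under 0.05, beside 0.0343% of all genes called and 896 genes at an unadjusted p under 0.05. The interval of GS minus 2DG was -1.04 to 0.27 for PDIA4, -0.73 to 0.30 for P4HB and -1.11 to 3.04 for ERO1B, so differences within those ranges are compatible with these arrays.

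In HT-29 cells GS raised 7 genes, P4HB, PDIA3, PDIA4, PDIA5, PDIA6, TXNDC5 and ERO1A, and TMX1 fell. Of all tested genes 11.5% were called higher and 15.4% lower in this comparison, so the calls stand against a wider background than in HT-1080. The median change of the 9 genes was 0.71, against -0.04 for all genes. The third array, at 14 h, stood apart: its median change over the 9 genes was 0.11, against 1.09 and 0.96 on the 18 h arrays, and time cannot be told apart from culture here.

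PDIA4 gave 3424 and 4355 with GS at 18 h and 1426 at 14 h, against 1441, 1813 and 1314 on their own controls. P4HB gave 4947 and 5909 with GS at 18 h and 3285 at 14 h, against 2307, 3274 and 3051. PDIA3 gave 6087 and 6844 with GS at 18 h and 4072 at 14 h, against 2930, 3544 and 3687. In each of the 3 genes the 14 h culture was close to its control and the 18 h cultures were well above theirs. Over all 3 arrays PDIA4 rose by 0.88 ± 0.19 (adjusted p = 0.00735), P4HB by 0.69 ± 0.15 (adjusted p = 0.00734) and PDIA3 by 0.71 ± 0.15 (adjusted p = 0.00571).

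PDIA5 rose by 0.79 (adjusted p = 0.00701), PDIA6 by 0.59 (adjusted p = 0.0238), TXNDC5 by 0.39 (adjusted p = 0.0278) and ERO1A by 0.96 (adjusted p = 0.00452). ERO1A gave 1325, 1191 and 648 with GS, against 619, 431 and 516 on their own controls. TMX1 gave 1325, 762 and 1286 with GS, against 1766, 1333 and 1286, a change of -0.40 whose adjusted p of 0.0498 lies at the threshold. ERO1B gave 28.2, 64.7 and 1.21 with GS, against 7.26, 1.30 and 10.7, and did not pass (1.16, adjusted p = 0.175).

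With only the 18 h arrays all 9 genes passed in HT-29, TMX1 lower and the others higher, and the median change was 1.00, with 15.3% of all genes called higher and 20.9% lower in that fit. PDIA4 was then at 1.25, ERO1A at 1.27, TXNDC5 at 0.55, TMX1 at -0.61 and ERO1B at 2.36 (adjusted p = 0.00117 for ERO1B). Without the first GS array or its control, ERO1A alone was called, and without the second, PDIA3, PDIA5 and ERO1A were.

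The change under GS in HT-1080 was set against that in HT-29. None of the 9 genes differed at an adjusted p under 0.05, and 3 did at an unadjusted p under 0.05, beside 0.575% of all genes called and 1573 genes at an unadjusted p under 0.05. The 3 were PDIA3, PDIA4 and PDIA6, with HT-1080 minus HT-29 differences of 0.58, 0.79 and 0.80. These rest in part on the 14 h HT-29 array: without it they were 0.29, 0.41 and 0.49, and TMX1 was called (0.68, adjusted p = 0.0441).

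Tunicamycin, on 1 HT-1080 array, left the 5 general isomerases above every unstressed array of parental HT-1080 cells. PDIA4 gave 2126 with TM, P4HB 5966, PDIA3 4167, PDIA6 3120 and PDIA5 856, each above the highest of the 6 HT-1080 controls. The fitted log2 changes were 2.17 for PDIA4, 1.26 for PDIA3, 1.24 for PDIA6, 0.98 for P4HB and 0.65 for PDIA5. TXNDC5 was at 0.29, TMX1 at 0.03, ERO1A at 0.48 and ERO1B, with a signal of 88.8, at 2.20. With 1 array, limma called 0 of the 9 genes and 0 of all 11654 (0%), while 6 of the 9 and 698 of all genes had an unadjusted p under 0.05. The lowest adjusted p among the 9 was 0.0662, for PDIA4, and when the fit held HT-1080 arrays alone 5 genes were called, PDIA4, PDIA3, PDIA6, P4HB and ERO1B, beside 1.69% of all genes.

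**Figure D2:**
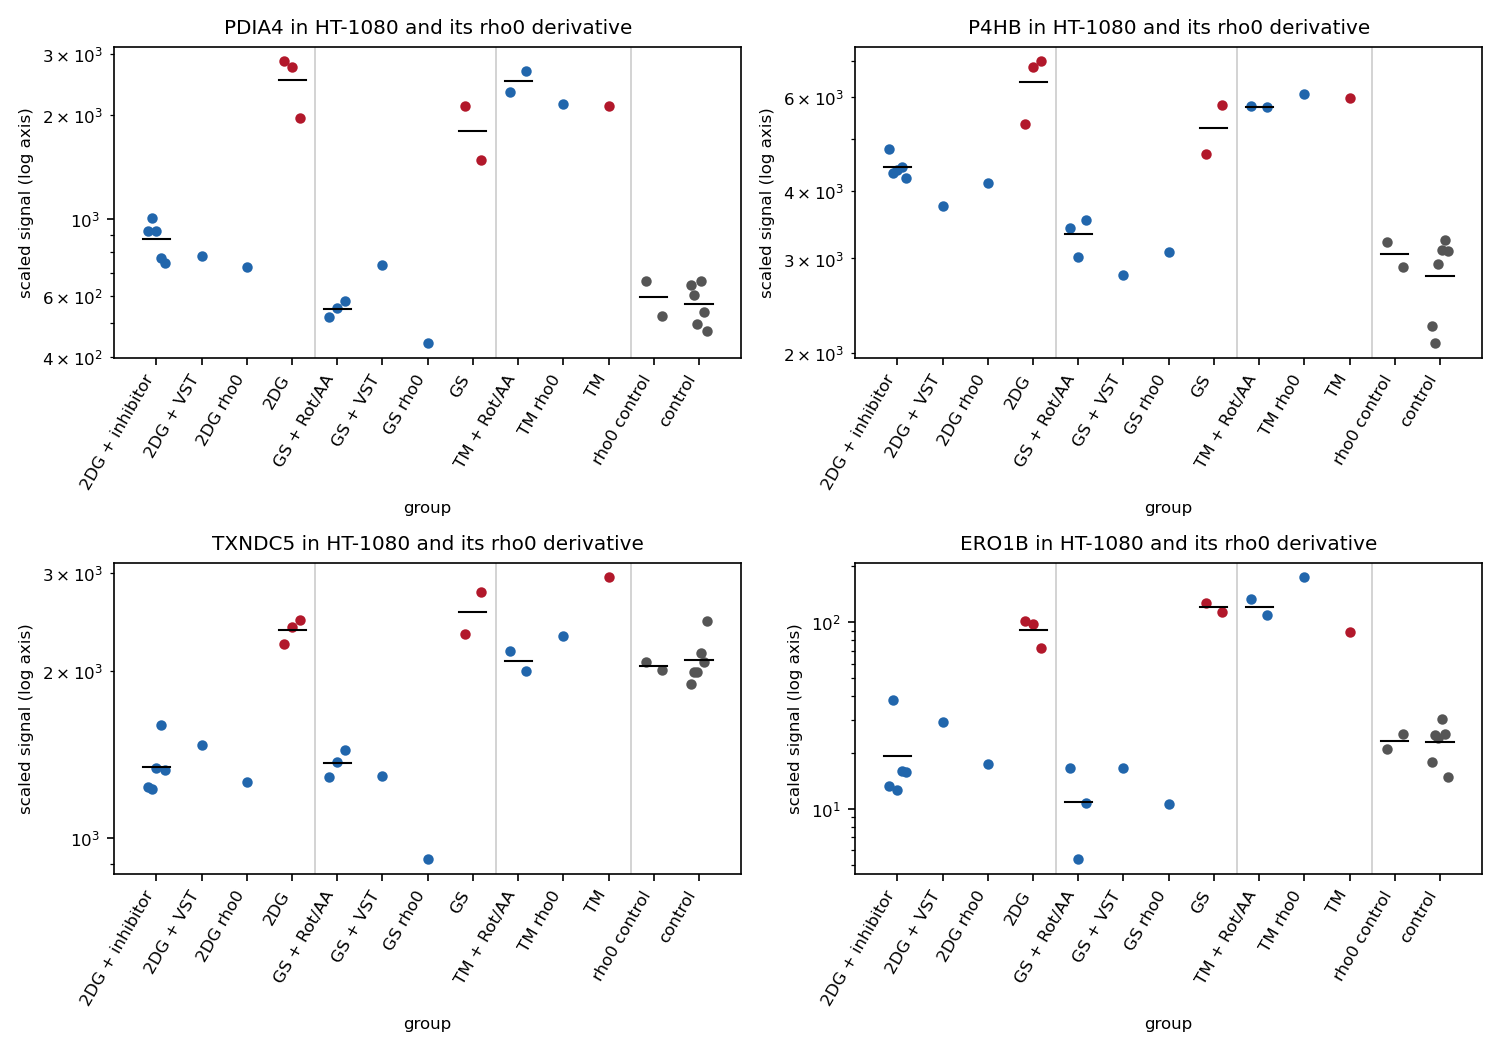
Scaled signal (log axis) of PDIA4, P4HB, TXNDC5 and ERO1B on the HT-1080 arrays, each point an array and each line a group mean, with stress alone in red, stress with a compound or in rho0 cells in blue and unstressed controls in grey. PDIA4 lies between 436 and 1007 on the blue points of 2DG and GS and between 2126 and 2862 on the arrays of TM and on 2 of the 3 arrays of 2DG alone, and TXNDC5 lies below its controls on the blue points of 2DG and GS.

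Mitochondrial inhibitors on top of 2DG were then compared with 2DG alone in HT-1080, with Met, Bu, Phen, Rot and AA sharing 1 coefficient. With an inhibitor 7 of the 9 genes were lower, PDIA4, P4HB, PDIA3, PDIA5, TXNDC5, TMX1 and ERO1B, and 0 were higher. PDIA6 and ERO1A did not pass. Of all genes, 24.3% were called lower and 14.9% higher, and the median was -0.78 for the 9 genes against -0.10 for all genes. Met, Bu and Phen share a control with no array of 2DG alone beside it, so their part of the comparison rests on differences of log2 change between control sets.

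PDIA4 gave 925, 1007, 926, 770 and 747 with 2DG and Met, Bu, Phen, Rot or AA in that order, against 2862, 2761 and 1965 with 2DG alone. The groups did not overlap and the difference was -1.41 ± 0.19 (SE, adjusted p = 1.28e-05). All 5 of these arrays still lay above the highest of the 6 controls (660). P4HB gave 4785, 4327, 4384, 4432 and 4235 with the inhibitors, against 5345 to 6984 with 2DG alone (-0.54 ± 0.13, adjusted p = 0.00208), and those 5 also stayed above all controls.

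PDIA3 gave 3412, 3404, 3834, 2395 and 2832 with the inhibitors (-0.50 ± 0.18, adjusted p = 0.027) and PDIA5 gave 528, 461, 529, 524 and 479 (-0.79 ± 0.17, adjusted p = 0.000682). PDIA3 remained above its control range and PDIA5 fell within it. The PDIA3 call was lost without the first or second 2DG array, the array of 2DG with Rot, or control 2 or 3 (adjusted p from 0.0536 to 0.292), and with the biguanides alone in the class PDIA3 was at -0.24 (adjusted p = 0.454). PDIA6 gave 3836, 4542, 4915, 3015 and 2619 with the inhibitors, against 4555 to 4753 with 2DG alone, and its difference of -0.37 did not pass (adjusted p = 0.151, interval -0.78 to 0.04).

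TXNDC5, which had not changed under 2DG alone, gave 1237, 1224, 1336, 1600 and 1328 with the inhibitors, against 2239 to 2470 with 2DG alone and 1894 to 2463 in unstressed cells. All 5 arrays lay below every array of both other groups, and the difference from 2DG alone was -0.91 ± 0.13 (adjusted p = 1.31e-05). TMX1 gave 730, 1330, 1170, 1132 and 1022 with the inhibitors, below both 1618 to 1937 with 2DG alone and 1380 to 1752 in unstressed cells (difference from 2DG alone -0.78 ± 0.22, adjusted p = 0.00706).

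ERO1A gave 1227, 1850, 1476, 1245 and 1320 with the inhibitors, against 1275 to 1386 with 2DG alone, and did not pass (-0.11, adjusted p = 0.628, interval -0.45 to 0.23). ERO1B gave 13.3, 38.3, 12.5, 15.9 and 15.7 with the inhibitors, against 72.8 to 101 with 2DG alone. It was lower by 2.30 log2 units as fitted (-2.30 ± 0.52, adjusted p = 0.00126), and 4 of the 5 arrays lay below 5 of the 6 unstressed HT-1080 arrays. This probe set passed the filter level on 10 arrays only, each of stress without a compound or of TM. Unstressed arrays, 2DG or GS with a compound and rho0 cells under 2DG or GS all lay under that level. ERO1B thus entered the tests through its high groups, and the size of its fall depends on the constant added to the signal.

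The biguanides, which share a biguanide group and differ in its side chain, were given at different doses and are set side by side without a comparison. Relative to their shared control, PDIA4 changed by 0.89, 1.01 and 0.89 with Met, Bu and Phen, PDIA6 by 1.01, 1.26 and 1.37, and TXNDC5 by -0.69, -0.70 and -0.58. The members' median change less that of all genes was 0.57, 0.70 and 0.72 on these arrays, against 1.07 to 1.36 on the arrays of 2DG alone. With Rot and AA on 2DG it was 0.28 and 0.23, and PDIA6 changed by 0.46 and 0.26 there. When the class held Rot and AA only, PDIA6 was lower than with 2DG alone (-0.81, adjusted p = 0.0125), and when it held the biguanides only it was at 0.11 (adjusted p = 0.767). The difference between these classes was not tested.

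With GS the inhibitors, Rot and AA, also left 7 genes lower than stress alone and 0 higher, with 12.1% of all genes called lower and 10.6% higher. The median was -0.96 for the 9 genes, against -0.04 for all genes. The 3 arrays were GS with Rot, in attached cells, and GS with Rot or AA with floating cells included. The Rot pair may come from the same culture, so the array of attached cells had its own term.

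PDIA4 gave 520, 554 and 578 with GS and Rot (attached), Rot (with floating cells) or AA (with floating cells), against 2115 and 1480 with GS alone and 474 to 660 in unstressed cells. It thus lay within its control range, and the difference from GS alone was -1.35 ± 0.26 (adjusted p = 0.00071). P4HB gave 3423, 3022 and 3539 on these arrays, against 4684 and 5797 with GS alone (-0.85 ± 0.17, adjusted p = 0.0012). PDIA6 gave 1496, 1261 and 1624, against 3855 and 3365 with GS alone (-1.20 ± 0.27, adjusted p = 0.00248).

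PDIA3 gave 2107, 1824 and 2563 with GS and an inhibitor, against 3439 and 4272 with GS alone (-0.96, adjusted p = 0.00505). TXNDC5 gave 1290, 1369 and 1443, again below all of its unstressed HT-1080 arrays (difference from GS alone -0.97 ± 0.17, adjusted p = 0.000279). ERO1A gave 733, 741 and 775 with GS and an inhibitor, against 1458 and 1121 with GS alone (-0.71 ± 0.22, adjusted p = 0.0222). The same probe set had kept its signal when inhibitors met 2DG, but the gene's other probe sets had not, as given below. ERO1B gave 16.6, 5.33 and 10.7, against 127 and 114 with GS alone (-2.88 ± 0.69, adjusted p = 0.00419). Its inhibitor arrays again lay under the filter level.

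PDIA5 (-0.42, adjusted p = 0.183) and TMX1 (-0.57, adjusted p = 0.18) did not pass with GS. Without the second GS array, which shares its control with the inhibitor arrays, 1 gene was called, TXNDC5. The ERO1A call was also lost without either array with floating cells or without control 1 or 6, and the PDIA3 call without the array of Rot with floating cells. The 3′ to 5′ ratio of ACTB was highest on these 3 arrays, as given above, and its part in the result was not tested.

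With tunicamycin, Rot and AA did not lower the group. None of the 9 genes was called, beside 0.163% of all genes, and 1 of the 9 (TXNDC5) and 1258 of all genes had an unadjusted p under 0.05. PDIA4 gave 2325 with TM and Rot and 2677 with TM and AA, against 2126 with TM alone. P4HB gave 5761 and 5729 with TM and an inhibitor, against 5966 with TM alone, and PDIA6 gave 4177 and 4277, against 3120. ERO1B gave 133.2 and 109.7, against 88.8. The intervals of the differences were -0.38 to 0.84 for PDIA4, -0.46 to 0.35 for P4HB and -0.19 to 1.06 for PDIA6. TXNDC5 gave 2176 and 1996 with TM and an inhibitor, against 2948 with TM alone, and was at -0.50 (adjusted p = 0.306).

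The effect of inhibitors under 2DG was set against that under TM. PDIA4 was lower by 1.64 log2 units more under 2DG (-1.64 ± 0.35, adjusted p = 0.0183), and 2.21% of all genes were called in that direction. The other 8 genes were not called, although 5 of the 9, and 2442 of all 11654, had an unadjusted p under 0.05, among them ERO1B (-2.72, adjusted p = 0.0936) and PDIA6 (-0.81, adjusted p = 0.202). The PDIA4 call was lost without the array of TM with AA (adjusted p = 0.0812), and also without the control set as a block (adjusted p = 0.0534). With HT-1080 arrays alone in the fit, 6 of the 9 genes were called lower, beside 5.11% of all genes. The 2DG class holds Met, Bu and Phen besides Rot and AA, and the TM class Rot and AA only, so compounds and control sets differ along with the stress. With Rot and AA only in both, PDIA4 was at -2.04 (adjusted p = 0.0148) and was again the 1 gene called, beside 0.455% of all genes called lower.

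Within a control set the comparison needs no model. With Rot and with AA on 2DG, with Rot (both arrays) and AA on GS, and with VST on GS in HT-1080 and in HT-29, 9 of 9 genes were lower with the compound than with the stress alone that shares its control. With TM and Rot and with TM and AA, 4 of 9 were. The median difference of the 9 genes was -0.64 and -0.81 with Rot and AA on 2DG, -1.02, -1.02 and -0.74 with Rot (attached), Rot (with floating cells) and AA on GS, and 0.08 and 0.18 with Rot and AA on TM. The median of all genes lay between -0.12 and 0.01 in these pairs. Where it was below 0, more of all genes were lower than higher, and their share is not given. The paired stress array is shared by the compounds set against it, so these values are not independent of each other.

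Versipelostatin with 2DG or GS left 8 of the 9 genes lower than stress alone and 0 higher, beside 21.6% of all genes called lower and 15.7% called higher. ERO1A, on the probe set that stands for it, was the exception. The median was -0.71 for the 9 genes, against -0.05 for all genes. PDIA4 gave 779 with 2DG and VST and 734 with GS and VST in HT-1080, against 1965 to 2862 with 2DG alone and 2115 and 1480 with GS alone. In HT-29 it gave 1685 with GS and VST, against 3424 with GS alone in the same control set. The difference over the 3 VST arrays was -1.35 ± 0.19 (adjusted p = 1.09e-05). The array of 2DG with VST has the same control as Met, Bu and Phen, with no array of 2DG alone beside it.

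PDIA5 gave 497, 402 and 390 with VST on 2DG, on GS and on GS in HT-29 (-1.02 ± 0.16, adjusted p = 3.65e-05), and in the HT-29 pair it stood at 390 with GS and VST, against 1288 with GS alone. TXNDC5 gave 1473, 1293 and 765 with VST in the same order (-0.89 ± 0.12, adjusted p = 8.8e-06). In both lines the VST arrays of TXNDC5 lay below all unstressed arrays of the same line. P4HB was at -0.61 (adjusted p = 0.000496), PDIA3 at -0.67 (adjusted p = 0.00322) and PDIA6 at -0.71 (adjusted p = 0.0052). In the HT-29 pair PDIA3 gave 5307 with GS and VST, against 6087 with GS alone, a difference of -0.20. PDIA6 gave 4416 against 5104 there, a difference of -0.21.

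TMX1 gave 1313 and 1465 with VST in HT-1080 and 525 in HT-29 (-0.64, adjusted p = 0.0187), the HT-29 array being the lowest of all 38 for this gene. ERO1B gave 29.1, 16.4 and 4.03 with VST (-1.94, adjusted p = 0.00338), all under the filter level. ERO1A gave 1438, 1232 and 974 with VST and was at -0.22 (adjusted p = 0.286, interval -0.54 to 0.10), and in HT-1080 both VST arrays stood above all unstressed arrays. Without the array of 2DG with VST, PDIA3 and PDIA6 were no longer called. The TMX1 value rests on the HT-29 pair: it was at -0.24 (adjusted p = 0.462) without the HT-29 array of GS with VST and at -0.54 (adjusted p = 0.0715) without the HT-29 array of GS alone in that control set.

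**Figure D3:**
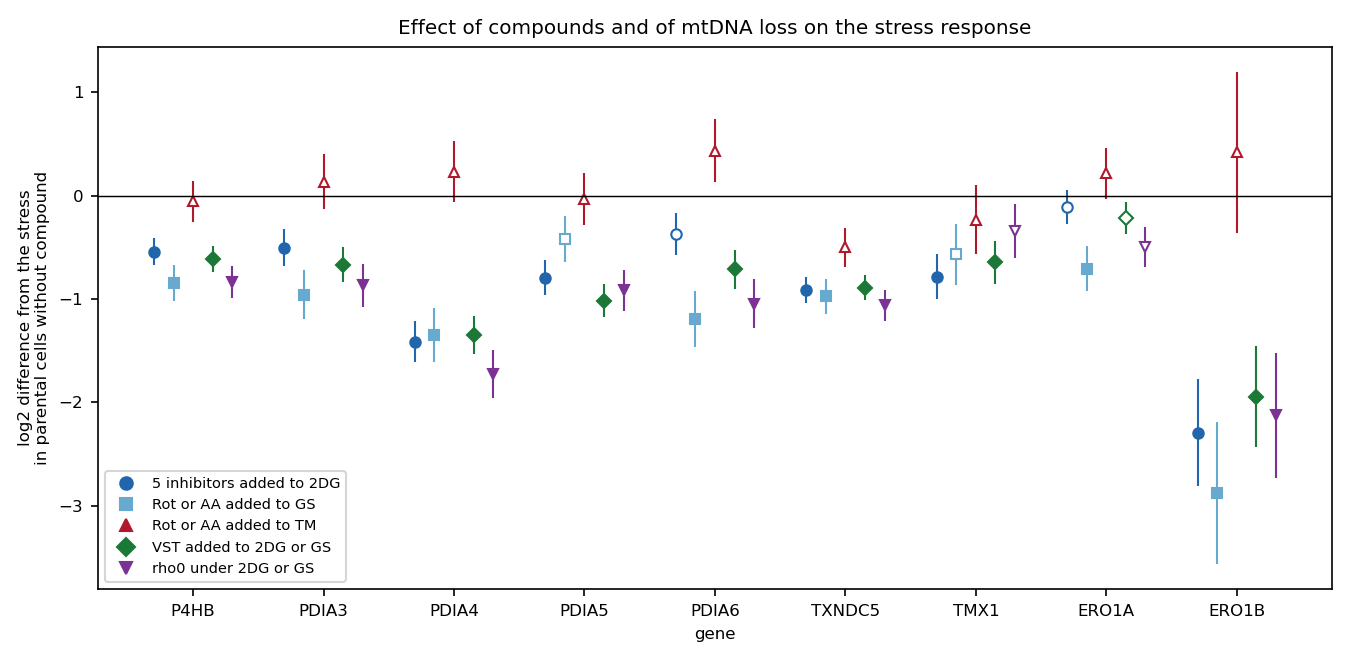
Log2 difference of each gene from stress alone in parental cells, for inhibitors with 2DG, with GS and with TM, for VST and for rho0 cells under glucose stress, with bars of 1 SE, filled points for an adjusted p under 0.05 and open points otherwise. PDIA4 lies between -1.73 and -1.35 in 4 of the 5 classes and at 0.23 with TM, and ERO1A lies nearest 0 with 2DG (-0.11).

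Rho0 cells under 2DG or GS were set against parental cells under the same stress, each relative to its own unstressed control. The rho0 GS array of HT-1080 includes floating cells and the parental GS arrays do not. The change was smaller in rho0 cells for 7 of the 9 genes, P4HB, PDIA3, PDIA4, PDIA5, PDIA6, TXNDC5 and ERO1B, beside 7.27% of all genes called lower and 7.34% called higher. TMX1 and ERO1A did not pass. The median was -0.92 for the 9 genes, against -0.02 for all genes. PDIA4 gave 726 in rho0 HT-1080 cells with 2DG, against 662 in their unstressed control, and 436 with GS, against 525 in theirs. In rho0 HT-29 cells it gave 975 with GS at 14 h, against 1302 in the unstressed ones. The difference from parental cells was -1.73 ± 0.23 (adjusted p = 0.000149).

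P4HB changed by 0.36 in rho0 HT-1080 cells with 2DG and by 0.09 with GS, against 1.20 and 0.98 in parental cells (difference over all rho0 arrays -0.84 ± 0.15, adjusted p = 0.00156). PDIA6 changed by 0.34 and -0.05 in rho0 HT-1080 cells, against 1.29 and 1.39 in parental cells (-1.05 ± 0.24, adjusted p = 0.00579). TXNDC5 changed by -0.72 and -1.13 in rho0 HT-1080 cells with 2DG and GS, against 0.19 and 0.23 in parental cells. It thus fell below its own control in rho0 cells under glucose stress, and its difference was -1.06 ± 0.15 (adjusted p = 0.000179).

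PDIA3 differed by -0.87 (adjusted p = 0.00788), PDIA5 by -0.92 (adjusted p = 0.00427) and ERO1B by -2.13 (adjusted p = 0.0215). The ERO1B signals of the rho0 arrays under 2DG or GS lay under the filter level. ERO1A was at -0.50 (adjusted p = 0.0864) and TMX1 at -0.34 (adjusted p = 0.419). Without the rho0 GS array of HT-1080 or its control, 4 genes were called, P4HB, PDIA4, PDIA5 and TXNDC5. The calls of PDIA3 and ERO1B were also lost without the rho0 2DG array or its control, and without the 14 h HT-29 array of GS alone ERO1A was called. At 14 h in HT-29, PDIA4 changed by -0.42 in rho0 cells and by 0.12 in parental cells, and TXNDC5 by -0.54 in rho0 cells and by 0.06 in parental cells, with 1 array each and no test. Rho0 minus parental, the members' median was -0.23 in this pair, against -0.92 in the fit. PDIA3 was at -0.10, PDIA6 at -0.12 and P4HB at -0.23, and ERO1B alone went the other way (1.12, at low signals). The fit set the 14 h rho0 HT-29 array against parental HT-29 arrays that include those at 18 h.

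Tunicamycin was also given to rho0 HT-1080 cells, on 1 array. PDIA4 gave 2157 in rho0 cells with TM, against 2126 in parental cells with TM, P4HB gave 6079 against 5966, and PDIA3 gave 4309 against 4167. PDIA6 gave 5867 in rho0 cells with TM, against 3120 in parental cells with TM, and ERO1B gave 175 against 88.8, while PDIA5 gave 536 against 856. Signals of the first 3 genes were thus close between the arrays and those of the last 3 were not. The changes from their own controls were 2.03 in rho0 cells and 2.15 in parental cells for PDIA4, 1.07 and 0.94 for P4HB and 2.55 and 2.21 for ERO1B. They were 1.57 and 1.27 for PDIA3, 1.09 and 1.20 for PDIA6 and 0.76 and 0.66 for PDIA5. PDIA6 and PDIA5 thus differed more in signal than in their change under TM. The median difference of the 9 genes, rho0 minus parental, was 0.05, and with 1 array on each side it has no replicate check.

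The compound arrays under 2DG or GS and the rho0 arrays under 2DG or GS were those with the lowest trimmed mean signal before scaling. With the deposited scaling in place of the common trimmed mean, the median difference of all genes was -0.48 with inhibitors and 2DG, -0.39 with inhibitors and GS, -0.42 with VST and -0.25 in rho0 cells, and that of the 9 genes was -1.19, -1.34, -1.12 and -1.16 in the same order. The median of the 9 genes thus lay below that of all genes under either scaling. What part the lower signal has in the results was not tested.

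Unstressed cells differed between the lines. In HT-29 relative to HT-1080, PDIA4 was higher by 1.41, PDIA3 by 1.01 and PDIA6 by 0.76, while TXNDC5 (-0.46), ERO1A (-0.49) and ERO1B (-1.30) were lower, and P4HB (0.05), PDIA5 (0.16) and TMX1 (-0.17) did not pass. The 6 calls stand beside 27.3% of all genes called higher and 32.4% called lower. Both counts of called members, higher and lower, thus lie near the share of all genes. Whether these genes differ between the lines more often than other genes was not tested. PDIA4 gave 1441, 1813 and 1314 in HT-29, against 474 to 660 in HT-1080, with no overlap. PDIA3 gave 2930, 3544 and 3687 in HT-29, against 1411 to 1999 in HT-1080. ERO1A gave 619, 431 and 516 in HT-29, against 653 to 864 in HT-1080.

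Between rho0 and parental HT-1080 cells without stress, 1 of the 9 genes was called, PDIA6 (0.56 ± 0.17, adjusted p = 0.0447), beside 6.08% of all genes called higher. PDIA6 gave 2314 and 2748 in rho0 cells, against 1351 to 2188 in parental cells. Its call was lost when any 1 of 6 of the 8 arrays was left out, and the second brightest of its 4 probe sets was at 0.17. PDIA5 gave 293 and 314 in rho0 cells, against 426 to 542 in parental cells, without overlap but without a call (-0.58, adjusted p = 0.0688). On the single unstressed rho0 HT-29 array the 9 genes were between -0.21 (PDIA4) and 0.45 (PDIA5) relative to the parental mean.

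**Figure D4:**
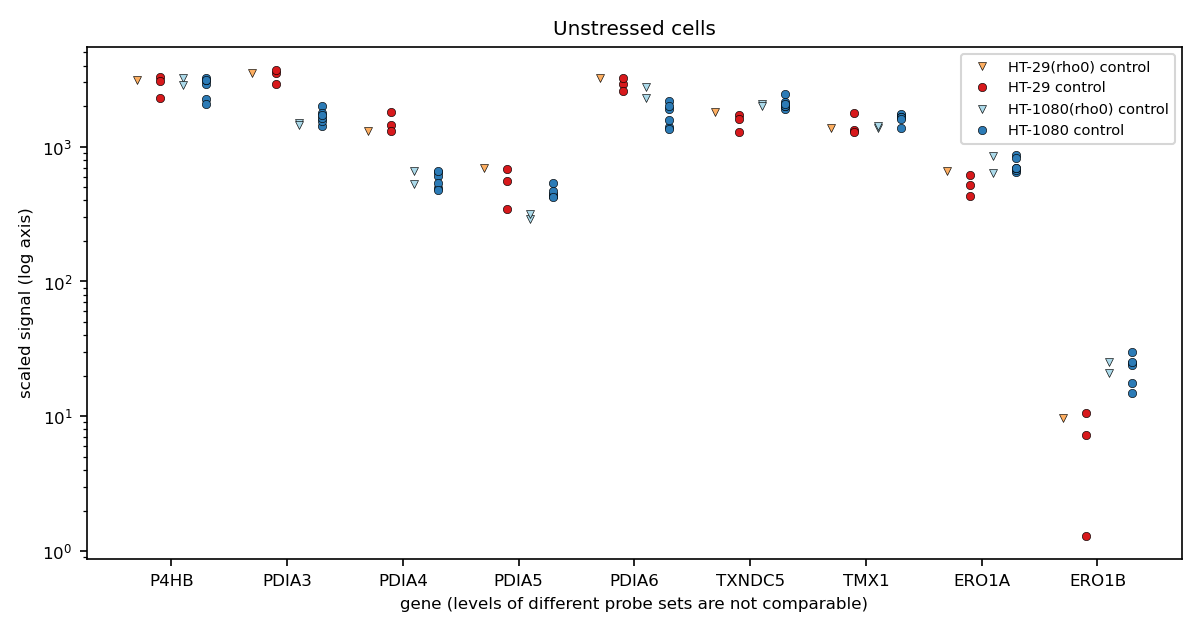
Scaled signal (log axis) of the 9 genes in unstressed cells, each point an array of HT-29, HT-1080 or a rho0 derivative as labelled. HT-29 arrays of PDIA4 (1314 to 1813) lie above all HT-1080 arrays (474 to 660), and the genes are not to be compared with each other, since each has its own probe set.

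Across the 21 probe sets of the 9 genes the direction was mostly shared. With 2DG alone 15 were called higher and 0 lower, and with GS 13 higher and 0 lower in HT-1080 and 16 higher and 1 lower in HT-29. Of all 21743 probe sets, 4.70%, 3.58% and 10.8% were called higher and 4.14%, 3.99% and 13.6% lower in these 3 comparisons. With inhibitors 17 were called lower on 2DG and 16 on GS, with VST 20, and in rho0 cells under glucose stress 17, with all 21 probe sets negative in each of these 4 comparisons. Of all probe sets 22%, 12%, 20.4% and 6.82% were called lower there. The share of all probe sets that were negative is not given, while the median of all genes lay at -0.10, -0.04, -0.05 and -0.02. In PDIA6, 2 of 4 probe sets were called lower with inhibitors on 2DG (the second brightest at -0.57 and the dimmest at -0.63), while the probe set that stands for the gene was not.

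The probe sets of ERO1A disagreed. With 2DG alone the brightest, which stands for the gene, was at 0.87, the dimmest at 0.38 and the middle one at -0.27, and only the brightest was called (adjusted p = 0.0144 among probe sets). With inhibitors on 2DG the brightest was at -0.11, whereas the dimmest was lower (-1.47, adjusted p = 0.00013), and so was the middle one (-1.16, adjusted p = 0.000403). With VST they were at -0.22, -1.16 and -0.94 in the same order. The statement that ERO1A kept its level with inhibitors on 2DG and with VST therefore holds for that probe set and not for the others, and which transcripts each detects was not examined.

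ERO1B had a pair of probe sets, both dim. The dimmer rose under 2DG (2.83, adjusted p = 0.0129 among probe sets), which the brighter, standing for the gene, did not at the threshold. With inhibitors on 2DG the dimmer was at -1.08 (adjusted p = 0.077), with the brighter at -2.30 (adjusted p = 0.00124), and with VST they were at -2.03 and -1.94, both called. TMX1 in HT-29 with GS was at -0.83 on the dimmer of its probe sets (adjusted p = 0.00499) and at -0.40 on the brighter, which stands for the gene.

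**Figure D5:**
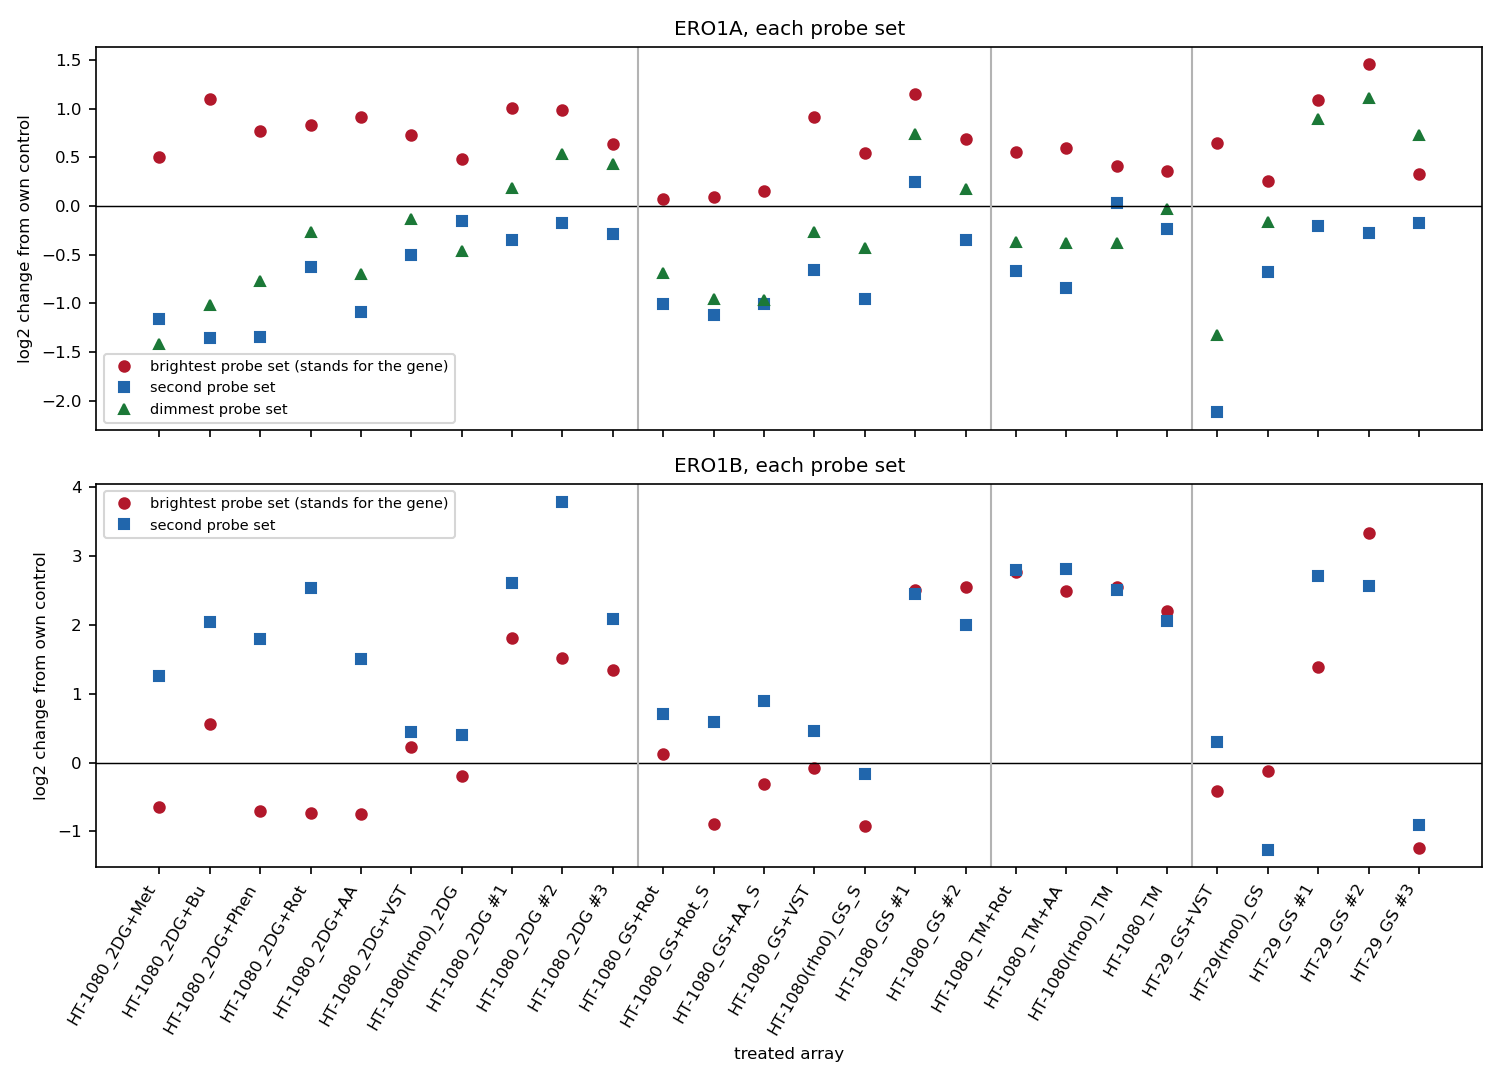
Log2 change from its own control on each treated array for the 3 probe sets of ERO1A and the 2 of ERO1B. For ERO1A on 2DG with inhibitors, the brightest probe set stays near its values with 2DG alone while the middle and dimmest ones lie lower.

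Genes that work beside the isomerases were counted from fixed lists. Of all genes, 4.85% were called higher with 2DG, 4.31% with GS in HT-1080 and 11.5% with GS in HT-29. Called lower there were 3.42%, 5.08% and 15.4%. With inhibitors on 2DG, inhibitors on GS, VST and rho0 cells, 24.3%, 12.1%, 21.6% and 7.27% were called lower. Called higher were 14.9%, 10.6%, 15.7% and 7.34%. No list was tested against these shares, and some counts below lie near them. Of the other PDI family members, 11 of 15 were measured, and with 2DG 2 rose and 0 fell: ERP44 (1.38, adjusted p = 0.00242), which retains ERO1 in the early secretory pathway, and DNAJC10 (1.06), a disulfide reductase that works in ER-associated degradation. The same list had 2 higher and 0 lower with GS in HT-1080 (ERP44 1.30 and DNAJC10 0.91) and 3 higher and 0 lower with GS in HT-29. It had 0 higher and 5 lower with inhibitors on 2DG, 0 and 3 with inhibitors on GS, 0 and 4 with VST, and 0 and 3 in rho0 cells under glucose stress. DNAJC10 was at -0.91, -1.62, -0.74 and -1.05 in these 4 comparisons.

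Partners of the members, such as chaperones and the P4HA subunits that pair with P4HB, were 14 measured of 16. With 2DG 10 rose and 0 fell, among them CRELD2 (2.18), SDF2L1 (2.08), MANF (1.60) and HSPA5 (1.31), the ER Hsp70 known as BiP. With GS 9 rose in HT-1080 and 9 in HT-29, and none fell. Lower were 8 with inhibitors on 2DG, 10 with inhibitors on GS, 8 with VST and 10 in rho0 cells under glucose stress, and none was higher in these 4. CRELD2 was at -1.88, -2.20, -2.65 and -2.69 there, and P4HA2, a prolyl hydroxylase subunit, at -1.35 with inhibitors on 2DG.

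ER thiol oxidases, peroxidases and selenoproteins other than the ERO1 genes were 13 measured of 14, and with 2DG 2 rose, QSOX1 (0.80), a sulfhydryl oxidase, and SELENOS (0.92), and SELENOT fell (-0.39). With inhibitors on 2DG 2 were higher and 5 lower, among them QSOX1 (-1.69, adjusted p = 5.97e-06) and QSOX2 (-1.53). With inhibitors on GS 0 were higher and 1 lower, SIL1 (-1.37). SIL1 was on this list but is a co-chaperone of HSPA5 and belongs to none of the classes named. With VST 2 were higher and 6 lower, and in rho0 cells under glucose stress 0 and 3. With GS in HT-1080 SELENOS rose (1.05) and SELENOT fell (-0.53). In HT-29 with GS 6 rose, among them SELENOK (1.58), and 1 fell.

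All 11 UPR and integrated stress factors were measured. With 2DG 8 rose, among them DDIT3 (2.74), the transcription factor CHOP, and TRIB3 (2.15), with GS 7 in HT-1080 and 9 in HT-29, where ATF3 was at 6.08, and none fell. With inhibitors on 2DG 3 were lower, TRIB3 (-1.83), EIF2AK3 (-1.73) and ERN1 (-1.38), and ATF3 was higher (1.62). Neither count is far from the share of all genes there, 24.3% lower and 14.9% higher. With inhibitors on GS 9 were lower (TRIB3 at -4.13), with VST 5 and in rho0 cells under glucose stress 5 (HERPUD1 at -2.90), and none was higher in these 3.

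Hypoxia genes, 15 measured of 16, were counted because ERO1A belongs among hypoxia-responsive genes. With 2DG 1 rose, P4HA1 (0.77), with GS 3 rose in HT-1080 (PDK1 at 1.18) and 8 in HT-29 (VEGFA at 2.45). With inhibitors on 2DG 1 was higher and 6 lower, with VEGFA at -2.36, EGLN1 at -1.67 and NDRG1 at -1.61, and with inhibitors on GS 1 was higher and 5 lower. With VST 1 was higher and 7 lower, and in rho0 cells under glucose stress 1 and 3. Secreted and collagen clients of the pathway, 8 measured of 10, had 2 higher and 0 lower with 2DG (LAMB3 at 1.33), 1 and 0 with GS in HT-1080 and 2 and 0 with GS in HT-29. With inhibitors on 2DG 0 were higher and 5 lower, with COL4A1 at -2.26 and COL4A2 at -1.77, whereas with inhibitors on GS COL6A1 was higher (1.03) and LAMB3 lower (-1.12). With VST 1 was higher and 3 lower, and in rho0 cells under glucose stress 0 and 1. With TM and with inhibitors on TM no gene of any of these lists was called, as few or none of all genes were.

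Genes of the same lists also differed between unstressed HT-29 and HT-1080 cells, beside 27.3% of all genes called higher and 32.4% called lower. AGR2, a mucin-associated PDI family member, was higher by 8.29, and SELENOM (-3.93), QSOX1 (-2.23) and COL4A1 (-4.89) were lower.

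The profiles of the 9 genes over the 26 treated arrays were compared as a description, since arrays share controls, stresses and lines. Between members, Pearson's r of the log2 changes was 0.942 for P4HB and PDIA3, 0.917 for PDIA3 and PDIA4 and 0.901 for PDIA4 and PDIA6. TMX1 and ERO1A had the lowest, 0.0384. Among 11645 other genes, those with profiles most like P4HB were COPE (r = 0.924), MYDGF (0.918) and LZTFL1 (0.915), and those most like PDIA4 were GMPPA (0.962), CDK2AP2 (0.942) and HYOU1 (0.938). PDIA3 was most like CDK2AP2 (0.902), ERP44 (0.900) and DNAJB11 (0.899), PDIA6 most like DNAJB11 (0.931), MYDGF (0.907) and HSP90B1 (0.901), and PDIA5 most like ALG2 (0.906), NUCB2 (0.897) and SEC24C (0.888).

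TXNDC5 was most like EDEM1 (0.947), LONP1 (0.928) and KDM5B (0.922), TMX1 most like PANX1 (0.930), YAP1 (0.919) and ADAM10 (0.897), and ERO1B most like SEC63 (0.879), CNIH3 (0.875) and PLPP5 (0.874). ERO1A had NFXL1 (0.843), ATP6V1C1 (0.838) and ATF4 (0.813), the lowest values among the 9 genes.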

How the data were processed

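The deposited table holds the intensity (MAS5 signal, a linear brightness per probe set) that the authors computed for each of 38 Affymetrix arrays, with MAS5 named per the submitters' processing notes. Per the labels, biotin-labelled cRNA was hybridised. The scaling target of the deposited signals is not given in the sources used here.

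Each array was scaled to a 2% trimmed mean of 113.748, the log2 was taken of signal plus 5.69 (5% of that mean), and probe sets reaching 45.5 (40%) on at least 2 arrays were kept, 21743 of 54675. The highest-mean probe set stood for each of 11654 genes. Of the probe sets, 41097 carried 1 symbol, 11777 none and 1801 several, and 388 of the last were named by their own RefSeq accession, a step added after the data were seen. 232 probe sets with missing values were left out. The number of arrays limits the precision, and no pair of arrays was identical.

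Tests used limma 3.58.1 in R 4.3.3 (lmFit and eBayes with an intensity trend, Benjamini-Hochberg over all genes, threshold 0.05), with the control set as a block. Separate fits covered stress alone (5 residual degrees of freedom), compounds and rho0 cells (15) and unstressed cells (8). The pairing of treated arrays with controls comes from the labels, and each deviated with its own control (correlation 0.301 to 0.632). The fits were tested on simulated data. Intervals are 95%. Promoters were searched with Python 3.11.15 and figures drawn with matplotlib 3.10.9.

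All 9 genes were named in every comparison. From each list up to 4 genes with the largest change past the threshold could be named, otherwise up to 2 as values, and per member the 3 genes with the highest correlation. The members and lists were chosen with earlier results of these data known. Alternatives were other offsets, filters, scalings, probe set rules, fits without trend or block, arrays of 1 line, other class memberships, and leaving out each array.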

Additional observations from a re-analysis of the deposited data

Results flagged for a closer look

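TMX1 gave its lowest unstressed HT-1080 signal on replicate 6, 1380, with the nearest other control at 1614. That gap is 0.655 of the range of the 6 arrays, past the 95% critical value of 0.625 for 6 values. Chance flags about 1 group in 20, and 1 of 9 genes was flagged here. The same array is the control of the second GS array, of GS with Rot and AA and of the TM arrays.

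The effect of mitochondrial inhibitors on PDIA4 differed between 2DG and tunicamycin, by -1.64 log2 units (2DG minus TM). It was flagged because the test of the difference passed, with an adjusted p of 0.0183 in limma. The inhibitor arrays of PDIA4 were at 747 to 1007 with 2DG and at 2325 and 2677 with TM.

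The change under glucose stress differed between rho0 and parental cells for 7 of the 9 genes, each flagged because the test of the difference passed. The differences, rho0 minus parental, were -0.837 for P4HB, -0.866 for PDIA3, -1.73 for PDIA4, -0.915 for PDIA5, -1.05 for PDIA6, -1.06 for TXNDC5 and -2.13 for ERO1B.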

How the results depend on the processing

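Of 1412 single-gene values under other settings, 1328 kept their side of the threshold, 38 lost and 46 gained the call, and 0 called values reversed. With 1 array left out 1083 kept their side, 97 lost and 8 gained the call, and 0 called values reversed. A value that missed the threshold both times counts as kept even where its sign changed. The cause of the shifts below was not tested, except that smaller sets of arrays leave fewer degrees of freedom. Low signals limit ERO1B, whose change with 2DG ran between 1.29 and 2.20 over the alternatives.

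With the deposited scaling the members' median was -1.19 for inhibitors with 2DG, -1.34 with GS, 0.057 with TM, -0.96 for 2DG minus TM, -1.12 for VST, -1.16 for rho0 cells under glucose stress and -0.16 for rho0 controls, where it reversed, and the count called was 1 for TM, 3 for 2DG minus TM and 2 for rho0 controls. The higher and lower gene calls for inhibitors with 2DG were then 428 and 5222, against 1732 and 2834 with the common trimmed mean. They were 581 and 3153, against 1241 and 1413, for inhibitors with GS, 395 and 4889, against 1835 and 2514, for VST, 249 and 1788, against 855 and 847, for rho0 cells, 365 and 1659, against 709 and 798, for rho0 controls and 46 and 888, against 199 and 258, for 2DG minus TM. With quantile normalization the median was -1.12 for inhibitors with GS, 0.013 with TM, -0.998 for VST and -0.11 for HT-29 against HT-1080 controls, where it reversed, and 1 gene was called for TM. With the mean of all probe sets it was 1.36 for 2DG, -1.14 for inhibitors with GS, -0.10 with TM, where it reversed, and -0.89 for VST, with 1 call for TM. With probe sets of 1 symbol, which leave out PDIA5 and TXNDC5, it was 1.29 for GS in HT-1080, -0.54 and 0.21 for inhibitors with 2DG and TM and -0.67 for VST.

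With an offset of 15%, 1 gene was called for TM and 2 for 2DG minus TM, and with an offset of 1% or without a filter 0 for rho0 controls. Without an intensity trend 3 were called for GS in HT-1080, 5 in HT-29 and 0 for rho0 controls. With arrays of the same line only, 4 were called for GS in HT-29, 5 for TM, 6 for 2DG minus TM and 2 for rho0 controls, and the median for VST was -0.79, as with HT-1080 arrays only in that class (-0.79).

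Without the replicate block, that is without the pairing by control set, 2 genes were called for TM and 0 for 2DG minus TM, and the median was -0.78 for inhibitors with GS and -0.67 for VST. It changed no other count of called members by over 1.5 times.

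Leaving out 1 array gave medians of 1.12 to 1.24 and 4 calls for 2DG, 0.90 to 1.15 and 0 for GS in HT-1080, and 0.55 to 1.00 and 1 to 9 for GS in HT-29. The difference of GS between lines gave 0.16 to 0.59 and 0 to 1, and GS minus 2DG gave -0.04 to 0.03 and 0. Inhibitors gave -0.83 to -0.66 and 6 to 7 calls with 2DG, -1.01 to -0.73 and 1 to 7 with GS, 0.083 to 0.18 and 0 with TM, and -0.70 to -0.60 and 0 to 1 for 2DG minus TM. VST gave -0.91 to -0.68 and 6 to 8, rho0 cells under glucose stress -0.98 to -0.86 and 4 to 8, rho0 controls -0.08 to 0.05 and 0 to 1, HT-29 controls -0.05 to 0.10 and 6 to 7, and TM without its control 1.10 and 0.

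Counts of all called genes moved by over 1.5 times in several fits. With arrays of the same line only they were 2807 for 2DG (963 with both lines), 2837 for GS in HT-1080 (1094), 1195 for GS in HT-29 (3141), 197 for TM (0), 82 for GS minus 2DG (4), 164 for inhibitors with TM (19) and 1017 for 2DG minus TM (457). Without the block they were 1863 for GS in HT-29, 54 for TM, 39 for GS minus 2DG, 7 for inhibitors with TM, 167 for 2DG minus TM and 964 for rho0 cells under glucose stress (1702). Without the trend they were 504 for 2DG, 449 for GS in HT-1080, 0 for GS between lines (67), 1 for GS minus 2DG, 12 for inhibitors with TM and 189 for 2DG minus TM. Other offsets, filters, scalings and probe set rules gave 1 to 7 for TM, 7 to 35 for inhibitors with TM, 225 to 934 for 2DG minus TM, 2 for GS minus 2DG and 115 for GS between lines. Rot and AA only gave 2537 for inhibitors with 2DG (4566) and 96 for 2DG minus TM, HT-1080 arrays only 2723 for VST (4349), and GS with Rot in attached cells alone 1407 for inhibitors with GS (2654).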
